A study of Arabidopsis thaliana with 24 samples.

Results

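The transcripts described here are those of Arabidopsis thaliana roots kept in control solution, taken as the rows of the deposited reactivity table labelled root and control. The table gave 12978 transcripts in that condition, and the lowest-numbered isoform of each gene was kept, which left 8956 loci. They were ranked within control roots by mean reactivity, by Gini index and by the reactivity of the highest base, and no ratio to another condition was taken. The plants were of accession Col-0, raised in hydroponic culture in diluted Hoagland's solution without added NaCl and used after 24 days of growth plus the 48 h that the parallel salt treatment lasted. About 40 plants were pooled for each library. Root tissue was either exposed for 5 min to dimethyl sulfate (DMS) at 0.75%, roughly 75 mM, or kept in buffer without it, with 3 libraries of each kind among the 24 libraries of the series. Poly(A) RNA was reverse transcribed from random hexamers. The authors combined the 6 libraries into 1 value per transcript, so no spread between replicates exists in the table, no test was possible, and every value below is a single combined measurement. Read depth is unknown.

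DMS enters living cells and methylates the base-pairing face of adenine and cytosine where that face is free. Reverse transcriptase stops at the methyl group, so a stop in excess of the untreated control marks a base that was neither paired nor covered. Structure-seq reads such stops across all messenger RNAs at once. The mean reactivity of a transcript is then taken as a measure of how open the RNA is. The Gini index, borrowed from the study of income, is 0 when all bases react alike and approaches 1 when a few bases hold nearly all the reactivity, as in an RNA with sharply defined paired and unpaired stretches. "Open" and "closed" below name positions in the ranking by mean reactivity, and "uneven" and "even" name positions in the ranking by Gini index. Whether the tissue was root could not be checked from this table, since reactivity is not abundance and no expression level was used here.

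Mean reactivity in control roots ran from 0.0140 to 1.21 on the authors' scale, with a median of 0.198 and the middle 50% of loci between 0.173 and 0.233. The Gini index ran from 0.307 to 0.996 around a median of 0.678. The highest base of a transcript had a median reactivity of 1.28, and 24 loci (0.268%) stood at 7, the highest value found anywhere in the table. At the other extreme, 1302 loci (14.5%) had no base at 1 or above. Each end of a ranking was set at 10.0% of loci, 896 of 8956. The most open end began at a mean of 0.283 and the most closed end lay at 0.150 or below. The most uneven end began at a Gini index of 0.751 and the most even end lay at 0.585 or below. The limits cut a continuous distribution: the nearest loci outside each end differed from the nearest inside by less than the rounding of these values.

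**Figure D1:**
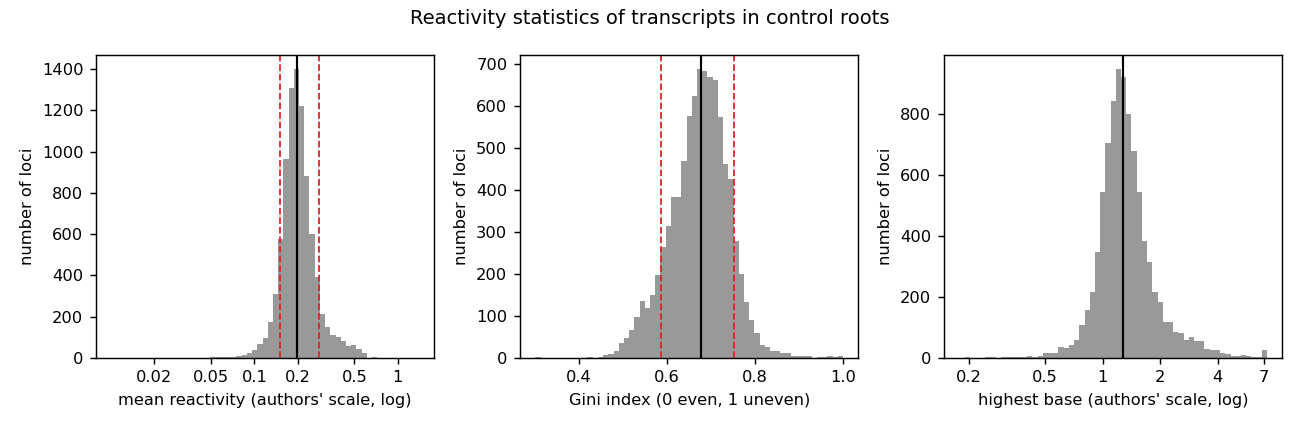
Mean reactivity, Gini index and reactivity of the highest base for 8956 loci in control roots. Bars count loci, black lines are the medians (0.198, 0.678 and 1.28) and dashed lines mark the 10.0% ends. The last bar at the right of the highest-base panel includes the 24 loci at 7 and loci just below.

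The scale of these values limits what the ranking by mean can say. In control shoots of the same table, the standard deviation of reactivity between the bases of a transcript was nearly the same for every transcript, with the middle 50% of loci between 0.363 and 0.375, and 0 loci had a highest base below 1. In control roots the middle 50% of standard deviations lay between 0.233 and 0.305. Spearman's rho between mean and Gini index across the 8956 loci was -0.993 in control shoots and -0.22 in control roots. The sources used here do not give how the authors scaled reactivity. A scale set transcript by transcript would move a mean or a highest base and leave the Gini index as it is, apart from bases held at 7, and its part in the ranking by mean was not tested.

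**Figure D2:**
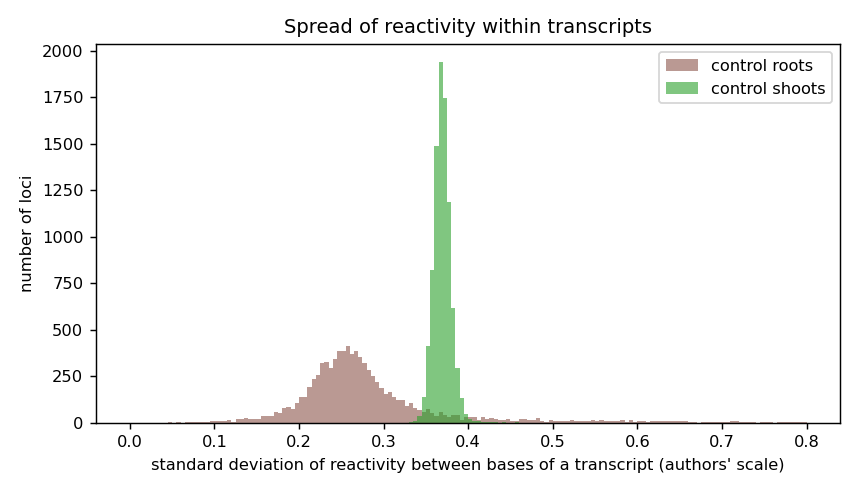
Standard deviation of reactivity between the bases of each transcript (authors' scale) for 8956 loci in control roots and control shoots. The shoot values form a narrow peak near 0.369 and the root values spread widely around 0.264; 91 root loci and 14 shoot loci above 0.8 lie outside the axis.

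Transcripts of photosynthesis and of plastids were frequent at the open end of the ranking. All 28 nuclear-encoded photosynthesis loci lay in the most open 10.0%, with a median mean reactivity of 0.526 against 0.198 over all loci, from 0.323 to 0.686. LHB1B2 (LHCB1.5) at 0.686 and LHCB6 at 0.680, both chlorophyll-binding antenna proteins of photosystem II, were the highest of the list. PSBR, a small subunit of photosystem II, at 0.323 and RBCS1A, a Rubisco small subunit, at 0.376 were the lowest, and both were still inside the open end. Together with the plastid ribosomal and chloroplast-encoded loci described next, these lists hold 63 loci, which supplied 4 of the 12, 17 of the 50 and 28 of the 100 highest means. All were read in libraries labelled root, and their expression level there was not examined. The photosynthesis list was also uneven: 24 of 28 lay in the most uneven 10.0%, with a median Gini index of 0.803 against 0.678. With the Gini index taken relative to loci of equal mean, 13 of the 28 lay in that end. PSAO, a photosystem I subunit, had the highest Gini index of the list at 0.857 and PSAD-1, another photosystem I subunit, the lowest at 0.746.

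High single bases accompanied these high means. The highest base of the photosynthesis transcripts had a median reactivity of 5.76 against 1.28 over all loci, and 8 of the 28 reached 7, out of 24 loci at 7 in all. Those 8 included ATPD, the delta subunit of the chloroplast ATP synthase, PSBX and PSBY of photosystem II, and PSBP-1 of the oxygen-evolving complex. The highest base held a median of 2.17% of a photosynthesis transcript's summed reactivity, against 0.952% over all loci. Beside these root values, the same 28 loci had a median mean of 0.388 and a median Gini index of 0.518 in control shoots.

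Plastid ribosomal proteins, which build the ribosome that translates chloroplast genes, lay mostly in the open end as well. Of 21 loci, 20 lay in the open end and 2 in the uneven end, with a median mean of 0.489 and a median Gini index of 0.709. EMB3126 (ribosomal protein L1 of plastids) at 0.594 and PSRP2 at 0.586 were highest, with Gini indices of 0.683 and 0.789. RPL3P at 0.233 was lowest in both mean and Gini index (0.605) and was the 1 member outside the open end; PSRP4 at 0.350 came next. Their cytosolic counterparts are described with the even end below. The 14 chloroplast-encoded loci had a median mean of 0.404, with 12 in the open end and 0 in the uneven end. This list took every chloroplast-encoded locus measured and was not limited to messenger RNAs. ATCG00480 at 0.534 and ATCG00470 at 0.516 were highest. ATCG00960 and ATCG01170, at 0.243 each, were the 2 outside the open end and had identical values, as did ATCG00900 with ATCG01240, ATCG00920 with ATCG01210, ATCG00950 with ATCG01180 and ATCG00830 with ATCG01310. Reads of such copies cannot be told apart, and each copy counts as its own locus in the 14 and in the 63 above. ATCG00960 and ATCG01170 had only 31 scored bases each.

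**Figure D3:**
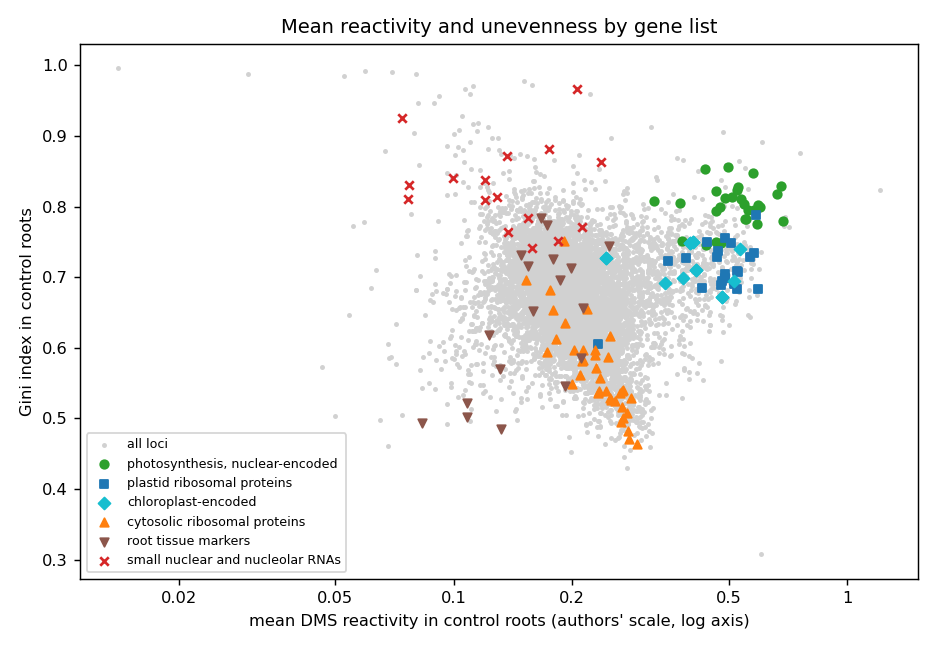
Mean reactivity (log axis) against Gini index in control roots; grey points are all 8956 loci and coloured symbols the members of 6 gene lists. Photosynthesis transcripts sit at upper right (medians 0.526 and 0.803), cytosolic ribosomal proteins at lower centre (0.234 and 0.557), and small nuclear and nucleolar RNAs at upper left (0.137 and 0.822).

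Among single loci, the 12 highest means belonged to AT5G10660, TPPI, SHM1, AT1G74470, LP1, LHB1B2, LHCB6, ATPD, AT2G41231, RPE, AT3G31161 and CAB3. AT5G10660 stood alone at 1.21, with a Gini index of 0.824 and a highest base of 7. TPPI, a trehalose-6-phosphate phosphatase, followed at 0.760 with a Gini index of 0.875. SHM1, the mitochondrial serine hydroxymethyltransferase of photorespiration, reached 0.711. Its relative SHM2, named here after its value was seen, stood at 0.190, below the median of all loci. AT1G74470, a geranylgeranyl reductase that supplies the phytyl tail of chlorophyll, had 0.696, and LP1, the lipid transfer protein LTP1, 0.690. RPE, the ribulose-phosphate epimerase, had 0.604 and CAB3, a chlorophyll a/b-binding protein, 0.60. In the annotation, 6 of these 12 loci overlap another gene (AT5G10660, AT1G74470, LHB1B2, LHCB6, AT2G41231 and AT3G31161), so reads of such pairs may not be separable. The share of overlapping genes over all loci was not computed, so the count is not a trait of high means. AT4G38080 and AT1G22690, among the 12 lowest means, also overlap another gene. AT5G10660 overlaps AT5G10670, an annotated pseudogene that was itself among the most uneven loci.

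AT5G10660, TPPI and AT2G41231 differed from the photosynthesis transcripts in control shoots. There their means were 0.202, 0.208 and 0.209 and their Gini indices 0.970, 0.970 and 0.969, near the top of that measure, whereas LHCB6 had 0.403 and 0.497. AT3G31161, an annotated transcribed pseudogene with 98 scored bases, combined a mean of 0.604 with the lowest Gini index of all loci, 0.307.

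The plastid pattern recurred inside 2 other lists, split by compartment after the values were seen. Of 34 heat shock proteins and chaperones, 12 lay in the open end, and 11 of those belonged to the 13 chaperones of plastids. CPN60B at 0.560 and Cpn60beta2 at 0.520, subunits of the chloroplast chaperonin, were highest of the list. The exception was Cpn60beta3, another beta subunit, at 0.134 in the closed end. Over the 13, the median mean was 0.415, and over the 21 other chaperones it was 0.236, with BIP1, an Hsp70 of the endoplasmic reticulum, the 1 of them in the open end at 0.291. Of 63 RNA-binding proteins and helicases, 10 lay in the open end, 7 of them plastid proteins with a median mean of 0.438, among them CP29 at 0.500 and CP31B at 0.453. The remaining 56 had a median of 0.217. Over all loci whose reference names mention chloroplast, plastid, photosystem, chlorophyll or thylakoid, 95 of 126 (75.4%) lay in the open end against the background of 10.0%.

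Cell wall loosening genes were also frequent at the open end. Of 17 expansins and xyloglucan endotransglucosylases, 8 lay in the open end and 3 in the closed end, with a median mean of 0.279. TCH4, a touch-induced member, had 0.412 and XTH9 0.384, while XTH30 had 0.0969 and EXPB3 0.117. Extensins, arabinogalactan proteins and proline-rich wall proteins were spread to both ends, with 7 of 32 open and 7 closed around a median of 0.203. PRP4, a proline-rich protein, had 0.449, and AGP40, an arabinogalactan peptide, 0.0919 with the list's highest Gini index of 0.957. Cytochrome P450s, oxygenases of many pathways, were spread in the same way, with 8 of 30 open and 6 closed.

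The closed end held several transcripts of genes known from roots. Of 18 root tissue markers, 7 lay in the most closed 10.0% and 0 in the open end, with a median mean of 0.163 against 0.198. JAL34, a jacalin-related lectin, had the lowest mean at 0.0828, followed by NAI2, a protein of endoplasmic reticulum bodies, at 0.108. PYK10, the beta-glucosidase that fills those bodies in roots, had 0.132 and the lowest Gini index of the list, 0.485. In all, 5 of the 7 closed members lay in the even end as well. SHV3 at 0.249 and AT2G37200 at 0.213 were the highest. TRH1, a potassium transporter of root hairs, had the highest Gini index at 0.784. The broader set of 40 loci whose reference names mention root stood closer to all loci. Of these, 6 (15%) lay in the closed end and 1 in the open end, with a median mean of 0.197.

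The 12 lowest means belonged to AT3G47030, CYP707A2, AT4G38080, MLP34, AT1G22690, AT2G22510, AT1G77885, AT1G65481, AT2G47570, AT5G40690, UPI and PMEPCRA. They were of 2 kinds. AT3G47030 at 0.0140, CYP707A2, an abscisic acid 8'-hydroxylase, at 0.0300, AT1G22690 at 0.0526 and AT2G47570 at 0.0593 had Gini indices of 0.985 to 0.996, so nearly all of their bases were at or close to 0. The other 8 had lower Gini indices, from 0.498 to 0.779, so their reactivity was less concentrated on a few bases. Among them, AT1G65481 at 0.779 and AT1G77885 at 0.773 still lay in the uneven end. AT4G38080 had a mean of 0.0462 and a highest base of only 0.192, the lowest of all loci. MLP34, a major latex-like protein, had 0.0499 and 0.245, and PMEPCRA, a pectin methylesterase, 0.0649 and 0.312.

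A low ceiling on every base marked this second kind, with highest bases from 0.192 to 0.487. Over all loci, the 8 lowest values for the highest base were those of AT4G38080, MLP34, AT1G49310, MT1C, PMEPCRA, NUDX25, AT3G48180 and AT1G09740, from 0.192 to 0.348. All 8 had means below 0.1 and Gini indices at or below 0.606, but only AT4G38080, MLP34 and PMEPCRA were among the lowest means named above. In the closed end as a whole, 530 of 896 loci (59.2%) had no base at 1 or above, against 14.5% of all loci. The ratio of the highest base to the mean, which no common scale can move, was nearly alike at the ends, with a median of 6.90 in the closed end, 6.78 in the open end and 6.45 over all loci.

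Metallothioneins, small cysteine-rich proteins that bind metals, stood at both extremes. MT1C had a mean of 0.0680 and MT1A 0.0948, both in the closed end, whereas MT2B had 0.321, MT2A 0.357 and MT3 0.397, all in the open end. Their Gini indices ran from 0.461 for MT1C to 0.672 for MT2A, close to the median of all loci, and 3 of the 5 lay in the even end. A similar contrast, chosen after its values were seen, lay between relatives of the ferredoxin-NADP reductase family: RFNR2, the root type, had a mean of 0.0984 and FNR1, the leaf type, 0.525.

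Transcription factors were more often closed than open. Of 166 loci, 38 (22.9%) lay in the closed end and 12 in the open end, with a median mean of 0.184. HSF4, a heat shock factor, had the lowest mean at 0.0801, and MYB59 had 0.0820. The entry AT4G36988 had the same values as HSF4 in every measure, so these entries cannot be told apart. WRKY18, a defence regulator, had 0.40 and TCP11 0.383. SHP1, a MADS-box factor of fruit development, had the list's highest Gini index at 0.959. Auxin response and SAUR genes showed 8 of 31 loci closed and 1 open, with AT2G46690 at 0.0988, IAA28, a repressor of auxin signalling, at 0.114 and IAA7 highest at 0.337. Some of these loci, such as IAA9, are also counted among the transcription factors, so these counts are not independent.

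Transporters of nutrients and ions leaned the same way, with 6 of 22 closed and 1 open and a median mean of 0.166. AT3G25190, annotated as a vacuolar iron transporter-like protein, had 0.0739 and WR3, a nitrate uptake component, 0.0868, while CAX1, the vacuolar calcium exchanger, had 0.443. In this list 7 of 22 also lay in the uneven end. Aquaporins, the water channels, had 5 of 16 loci in the closed end and 9 in the even end. PIP2B (PIP2;2) at 0.0898 was their lowest mean, RD28 followed at 0.0982, and DELTA-TIP was highest at 0.303. SIP1;2 was the exception in evenness, with a Gini index of 0.807. Nuclear-encoded proteins of mitochondrial respiration had 4 of 17 loci closed and 0 open, with SDH2-1, an iron-sulfur subunit of succinate dehydrogenase, at 0.122 and a Gini index of 0.788.

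Small nuclear and nucleolar RNAs lay mostly in the closed and uneven ends. Of 16 such RNAs, which guide splicing and RNA modification, 9 lay in the closed end and 14 in the uneven end, all 9 closed ones among them, with a median Gini index of 0.822. U3B had a mean of 0.0738, U12 0.0767 and U6-1 a Gini index of 0.966. These RNAs are short, with a median of 33.5 scored bases against 694 over all loci, and the highest base alone held a median of 19.9% of their reactivity. Over all loci with under 100 scored bases, 19 of 45 (42.2%) lay in the uneven end and 17 (37.8%) in the closed end. Of 38 annotated pseudogenes, 21 lay in the uneven end and 15 in the closed end, 12 of them in both, with a median of 666 scored bases. Of 34 long and other non-coding RNAs, 14 were uneven and 16 closed, 10 of them both, with a median of 348.5 scored bases, among them TAS3, a precursor of small interfering RNAs, at a mean of 0.109. The 6 mitochondria-encoded loci, with a median of 318.5 scored bases, had 3 members in the closed end and 3 in the uneven end, from ATMG01200 at 0.106 to ATMG01380 at 0.216.

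The 12 highest Gini indices were those of AT3G47030, AT2G47570, AT3G52700, AT2G16018, CYP707A2, AT1G22690, AT4G06597, AT5G10670, AT5G55430, AT1G47300, U6-1 and SADHU2-1, from 0.960 to 0.996. A Gini index sets a lower limit on how many bases reacted at all. That limit was 2 of 236 scored bases for AT2G47570, 3 of 660 for AT3G47030, 4 of 402 for AT3G52700 and 5 of 436 for AT2G16018. In AT2G47570 the highest base held 50.0% of the summed reactivity of 14, so its reactivity sat on 2 bases at 7. In AT3G52700 the highest base held 25% and in AT2G16018 20.0%, again with all reacting bases at 7. These figures rest on the recovered number of scored bases. If the true number differs by some factor, the count of bases at 7 changes by that factor and the percentage on the highest base by its inverse. For U6-1 the recovered number, 366, exceeded the reference gene length of 101, so its share is not given. AT3G52700, AT2G16018, AT1G22690, AT5G10670 and SADHU2-1 overlap other annotated genes, so their reads may not be separable. AT2G47570 and AT3G47030 do not. Over the 27 loci with a Gini index above 0.9, only 20 were protein-coding, against 98.3% of all loci. Their lower limit had a median of 14 bases. In control shoots 21 of the 27 were also above 0.9, and in salt-treated roots 22 were. Over all loci, the upper 10.0% of Gini indices began at 0.755 in control shoots and 0.764 in salt-treated roots.

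**Figure D4:**
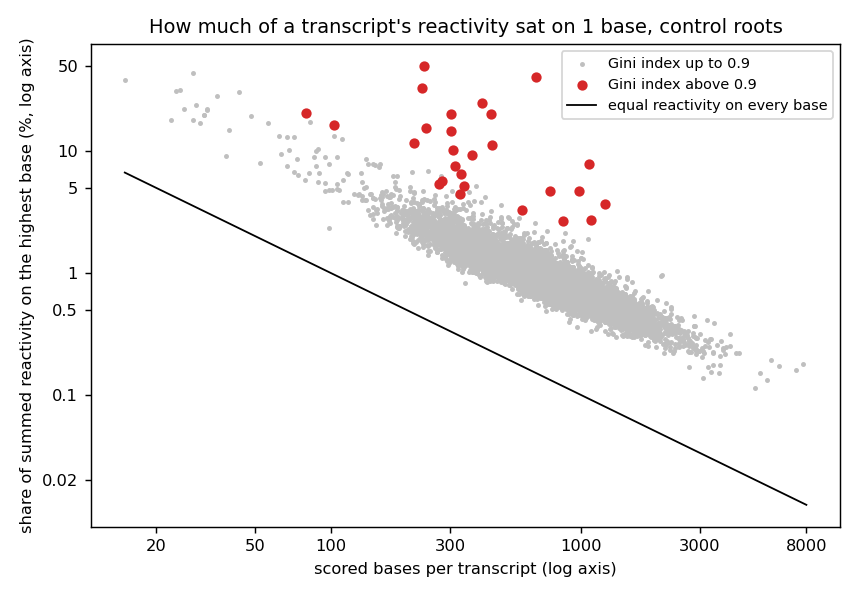
Share of a transcript's summed reactivity on its highest base (log axis) against the number of scored bases (log axis) for 8956 loci in control roots; the black line is the share if every base reacted equally. The 27 loci with a Gini index above 0.9 (red) lie above the band formed by the others, and AT2G47570 is at the top with 50.0%.

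Cytosolic ribosomal proteins were frequent at the even end. Of 37 cytosolic ribosomal proteins, 23 lay in the most even 10.0% and 1 in the uneven end, with a median Gini index of 0.557. RPL18 had the lowest at 0.464 and the highest mean, 0.292. RPL5B had 0.282, and RPL18AA at 0.152 and RPL23AB at 0.172 were the lowest means. RPSAb was the exception in evenness at 0.751. Unlike the plastid ribosomal proteins, only 1 of the 37 lay in the open end.

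Other groups with many even members were actins and tubulins with 11 of 18, aquaporins with the 9 of 16 given above, translation factors with 11 of 33 and heat shock proteins and chaperones with 18 of 34. Tubulins and actins form the cytoskeleton. TUA5 had their lowest Gini index at 0.520 and TUA1 the highest at 0.744, and TUB5 had the highest mean at 0.312. Among translation factors LOS1, the elongation factor 2 homologue, had a Gini index of 0.484. Among chaperones BIP1 had the lowest at 0.480, and HSP18.2, a small heat shock protein, the highest at 0.768. Histones followed with 9 of 27 even, 3 of them also open, and proton pumps with 7 of 22. All 31 lists together held 159 of the 896 loci of the even end.

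Subunits of the 26S proteasome, which degrades tagged proteins, varied little. Their 38 means spanned 0.181 to 0.273, none in the open or closed end. In the even end lay 4 of them (10.5%, near the background of 10.0%), led by PAG1 at a Gini index of 0.497. RNA-binding proteins and helicases had 14 of 63 even, all outside the 7 plastid members. PRH75, a DEAD-box helicase, had their lowest Gini index at 0.513. Receptor-like kinases had 0 of 25 even, with WAK4, a wall-associated kinase, at 0.835, and F-box and RING proteins had 0 of 20. Against a background of 10.0%, lists of this size or smaller, here and in the other paragraphs, are too small for a count of 0 to be read as a difference.

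**Figure D5:**
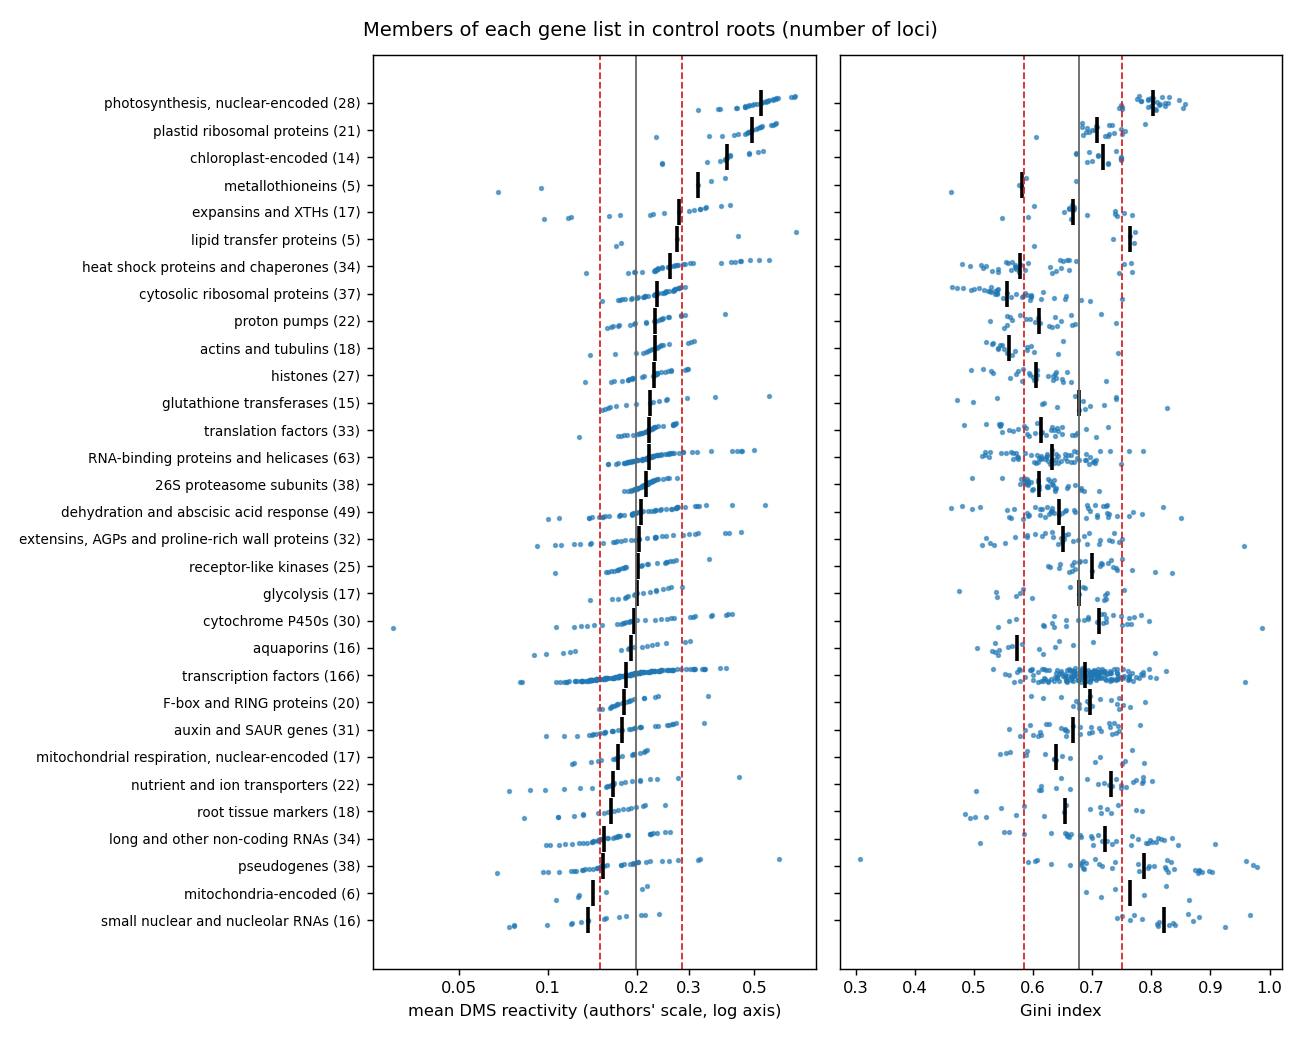
Mean reactivity (left, log axis) and Gini index (right) of the members of 31 gene lists in control roots; points are loci, thick ticks the list medians, the grey line the median of all loci and dashed lines the 10.0% ends. Lists are ordered by median mean reactivity, from 0.137 for small nuclear and nucleolar RNAs to 0.526 for photosynthesis.

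The 12 lowest Gini indices were those of AT3G31161, AT1G47970, AT5G18380, DOT1, AT2G22795, AT3G24080, MT1C, AT1G54410, CAM1, RPL18, AT5G39570 and ROF1, from 0.307 to 0.469. AT1G54410 is the dehydrin HIRD11, CAM1 a calmodulin and ROF1 an FKBP-type immunophilin. Their means ranged from 0.0680 for MT1C to 0.604 for AT3G31161, and the other 10 lay between 0.198 and 0.315. CAM1 had a mean of 0.242, a highest base of 1.11 and at least 199 of 370 scored bases above 0. DOT1 had a highest base of 0.570, only 2.87 times its mean.

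Genes of the response to dehydration and abscisic acid, read here without any stress, stood close to all loci. Of 49 loci, 7 were open (14.3%), 6 closed (12.2%), 9 even (18.4%) and 5 uneven (10.2%), against 10.0% at each end, with a median mean of 0.207. KIN2, a cold- and abscisic acid-induced gene, had 0.543 and LTI78 (RD29A) 0.420. LTI30, a dehydrin, had 0.10 and SAG21 0.109. ABI2, a phosphatase that restrains abscisic acid signalling, had the highest Gini index at 0.850. Glycolysis enzymes lay close to the median of all loci at 0.199, with 6 of 17 even, among them the enolase LOS2 at a Gini index of 0.476. Glutathione transferases had 3 of 15 open, with GSTU20 at 0.562 and GSTL3 at 0.367, and 0 closed.

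Mean and unevenness were only loosely tied in control roots. Open loci were found in the uneven end (159 of 896, 17.7%) and in the even end (94, 10.5%), and closed loci likewise (197, 22%, and 78, 8.71%). Photosynthesis supplied 24 of the 159. To compare loci at equal mean, the median Gini index of the locus's own one of 50 equal bins of mean reactivity was subtracted. In the top bin, 179 loci with means from 0.447, the median Gini index was 0.734, so high means went with a high index there. Photosynthesis transcripts stood a median of 0.0692 above their bins, with 13 of 28 in the most uneven 10.0% by this measure instead of 24, and plastid ribosomal proteins a median difference of -0.0138. The largest excess was that of AT3G47030 (0.331) and the largest deficit that of AT3G31161 (-0.43), and PYK10 at -0.21 and DOT1 at -0.22 were among the 8 most even for their mean.

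Features that the ranking did not use were weakly related to mean reactivity. Across 8893 loci with a reference entry, Spearman's rho of gene length with the mean was 0.0068, with the Gini index 0.0506 and with the highest base 0.182. The number of scored bases gave -0.0187, 0.107 and 0.224 over 8956 loci. All of these share the same libraries, and a longer transcript has more bases from which its highest is drawn. The loci of the open end had a median of 621 scored bases and those of the closed end 620.5, against 694 over all loci. Protein-coding genes made up 98.2% of the open end, 94.0% of the closed end, 93.9% of the uneven end and 99.1% of the even end, against 98.3% of all loci. Loci without a reference entry counted as not protein-coding: 13 in the open end, 14 closed, 5 uneven and 3 even. Among 2828 loci with more than 1 isoform in the table, the isoforms of a locus differed by a median of 0.00942 in mean and 0.0190 in Gini index, and isoforms share most of their sequence and reads.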

How the data were processed

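One deposited table was used, with 1 value per transcript and condition that the authors made by combining replicates. Per the file headers, 3 measures (highest, mean and standard deviation of reactivity) are scores on the authors' scale, and the deposited Gini index is a fraction from 0 to 1. The sources used here name no aligner, genome build, scaling or filter on coverage, and coordinates are therefore not printed. For 8893 of 8956 loci (99.3%) a symbol or locus entry was found in the reference annotation TAIR10.1.

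The number of scored bases was recovered from the deposited mean, which carries 12 digits while single reactivities carry 3 decimals, as the smallest whole number of bases that fits all 4 conditions. It may be a divisor of the true number, it exceeded the reference gene length at 4 loci (U6-1 among them), and it is not read depth. At least 2 conditions gave it alike for 75.5% of transcripts, and on simulated data it was recovered exactly for 95.8% of 500 transcripts. Members of 31 lists of at least 5 loci came from symbols and reference names, and members that only shared a symbol were removed by hand where their names showed it. The members and lists were chosen with earlier results of these data known, and 6 lists of 34, the compartments and the relatives named in pairs were added after seeing the values. Class III peroxidases, pentatricopeptide repeat proteins and jacalin-related lectins had under 5 loci and are not reported. Named genes are the 12 highest and lowest by mean and Gini index, the 8 lowest by highest base, the 8 extremes of Gini index for a given mean, and in each list the 2 highest and 2 lowest means and the extreme Gini indices. Single loci outside this rule were chosen after their values were seen. Near-identical genes can share reads. Python 3.11.15, pandas 2.3.3 and SciPy 1.17.1 were used.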

Additional observations from a re-analysis of the deposited data

How the results depend on the processing

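No paired analysis was possible because the table holds 1 combined value per transcript. Of the overall medians, relations and leading list counts, 139 of 150 recomputed values stayed within the interval of the median (95%, order statistics over loci) or within 1.5 times the count. Of the 150, 17 could not move: they kept loci measured in all 4 conditions, and every locus was. With all isoforms the median of the mean was 0.197 and that of the Gini index 0.680, and with the highest-numbered isoform they were 0.196 and 0.683. With all isoforms, which count a locus more than once, 45 of 66 transcripts of cytosolic ribosomal proteins, 14 of 23 of aquaporins and 29 of 113 of RNA-binding proteins lay in the even end, and 13 of 27 of root tissue markers in the closed end. A 20% limit put 24 RNA-binding proteins in the even end. With the Gini index taken relative to loci of equal mean, 13 photosynthesis transcripts were in the uneven end instead of 24. Leaving out organelle transcripts left 0 chloroplast-encoded loci by construction. For all other list counts, 131 of 1063 recomputed values moved by more than 1.5 times, 59 of them under the 20% limit. Of the 1063, 112 came from the setting that removed no locus and could not move. The mean without its highest base, the lists before shared symbols were removed and loci under 100 scored bases left out were chosen after seeing the data.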
